A study of Sus scrofa with 5 samples.

Results

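The genes described here are made mainly or only by the oocyte, the single germ cell that each ovarian follicle encloses. They were chosen by gene symbol from a list of 32, and 26 of the 32 were found among the 30822 genes of the files. No measured value entered the rule, but the list was drawn up with earlier results of these data known. PATL2, OOSP2, RFPL4A, SOHLH2, TUBB8 and BCAR4 had no row under those symbols and are not analysed here. The 26 fall into 4 genes of the zona pellucida and oocyte surface, 10 of the maternal complex and other maternal-effect proteins, 6 transcription factors, 4 RNA-binding or mRNA-decay proteins and 2 regulators of meiosis.

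The study sequenced RNA of whole follicles from the ovaries of female pigs (Sus scrofa) of the Indian Ghoongroo breed, in 5 libraries. It set large follicles (3 libraries) against small follicles (2 libraries), with no other treatment in the labels. Replicates are labelled as biological, but the sources used here do not give the animals, their ages, the diameters or how many follicles made a library, so a p-value reflects only the spread between these libraries, which may be technical. RNA was isolated with TRIzol and made into paired-end libraries with a stranded mRNA kit, so each library mixes the oocyte with the granulosa, theca and other cells around it.

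A growing oocyte stores RNA and protein that must serve it through meiosis, fertilization and the first divisions of the embryo, because its own transcription is switched off near full size. It secretes the zona pellucida, the glycoprotein coat that sperm bind and cross. It also builds the subcortical maternal complex, a protein assembly under the cell membrane that the early embryo requires, and its transcription factors FIGLA, NOBOX, SOHLH1 and LHX8 are known to switch on many of these oocyte genes.

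The files give each gene as FPKM, fragments scaled by the gene's length and the library's total. Library totals, worked back from the FPKM steps, ran from 9523739 to 11507527 fragments, and 3 fragments of a gene 2000 bases long amount to 0.13 to 0.158 FPKM. Large 2 and small 1 stood apart from the other libraries. Mitochondrial mRNA made up 6.33% and 8.5% of their fragments against 3.08% to 4.2% in the other three, and the 20 highest genes 18.3% and 18.9% against 11.6% to 13.2%. Markers of other cells also differed between libraries, with no overlap of the groups in summed FPKM for theca, myeloid, endothelial, lymphocyte and red blood cell lists. The summed FPKM of all 10 granulosa markers was 5506 to 12782 in large and 4156 to 5583 in small libraries, that of all 7 theca markers 1861 to 3931 and 820.4 to 1176, and that of all 6 stroma markers 4055 to 6032 and 3859 to 4229. All 5 myeloid markers summed to 174 to 248 and 82.3 to 94.2 FPKM, all 5 endothelial markers to 227 to 261 and 183 to 184, and all 4 lymphocyte markers to 3.94 to 5.28 and 2.00 to 2.62, with MS4A1 at 0 in large 2 and large 3. The 2 matched red blood cell markers summed to 997 to 1666 and 231 to 697 FPKM. The 5 matched cumulus markers summed to 26.1 to 51.1 and 39.6 to 58.0 FPKM, and the 6 matched surface epithelium markers to 11.3 to 18.9 and 14.3 to 19.0, with SLC38A3 and UPK3B at 0 in large 1. These sums follow their highest genes, and in several lists the markers did not all go one way. In large follicles INHA and FST had higher means, and the other granulosa markers lower ones. Lower means in large follicles were also seen for NR5A1, GLI1 and PTCH1 (theca), CDH5 and KDR (endothelial), and CD8A and MS4A1 (lymphocyte). The other theca, endothelial and lymphocyte markers had higher means there. The part of these cell types in the results on oocyte genes was not tested.

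Summed, the oocyte genes took a larger share of the RNA in large than in small follicles, mainly through ZP3, ZP4, PADI6 and KHDC3L. Together the 26 genes held 140.1 FPM (fragments per 1000000 of the library) in large 1 (Wilson 95% interval 133 to 147), 122 in large 2 (115 to 129) and 129 in large 3 (123 to 136). They held 79.4 in small 1 (73.9 to 85.2) and 81.3 in small 2 (75.9 to 87.1), where the intervals cover counting error only. No test is given for this total. The groups did not overlap, at 130.4 ± 9.15 (SD, n = 3) in large and 80.3 ± 1.35 (SD, n = 2) in small libraries. Much of the gap lay in the zona genes ZP3 and ZP4: without both, the means were 81.6 ± 5.57 (SD, n = 3) and 62.1 ± 9.54 (SD, n = 2). Most of the rest lay in PADI6 and KHDC3L. PADI6 had 278, 306 and 249 fragments in large 1, 2 and 3, and 169 and 111 in small 1 and 2. KHDC3L had 103, 137 and 109 in large 1, 2 and 3, and 63 and 30 in small 1 and 2. In whole follicles, a smaller share of oocyte in the tissue and less of an mRNA in each oocyte cannot be told apart.

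**Figure D1:**
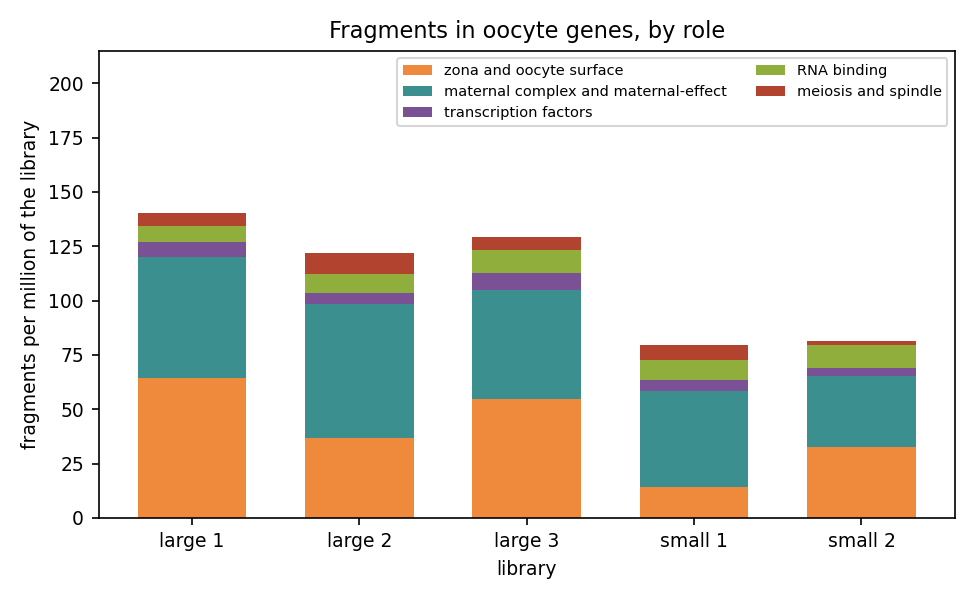
Bars give the oocyte genes in FPM for each library, stacked by role; each bar is 1 library. The 3 large follicle bars reach 122 to 140.1 and the 2 small follicle bars 79.4 and 81.3.

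The gap was not shared evenly by the roles. Zona and surface genes held 51.9 ± 14.1 (SD, n = 3) FPM in large and 23.3 ± 13.1 (SD, n = 2) in small libraries. Maternal-complex and maternal-effect genes held 55.8 ± 5.6 and 38.5 ± 8.3, a gap that lay mostly in PADI6 and KHDC3L. Transcription factors held 6.51 ± 1.26 and 4.31 ± 0.739, a gap that lay mostly in NOBOX, with large 2 (5.1) close to small 1 (4.83). The RNA-binding group was at 9.12 ± 1.59 and 9.7 ± 0.796, with the small mean inside the range of the large libraries. The meiosis genes, at 7.09 ± 2.27 and 4.46 ± 3.49, spread widely within both groups.

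No single oocyte gene passed the test. Each gene that reached 1 FPKM in 2 or more libraries was tested with limma on log2(FPKM + 1), a scale that understates changes of low genes, and called at a Benjamini-Hochberg adjusted p under 0.05. By this rule 0.978% of the 13087 genes tested were called, 0.535% as higher and 0.443% as lower in large follicles. None of the 14 oocyte genes that entered the test was called, nor by limma voom on fragments worked back from the FPKM. At an unadjusted p under 0.05 there were 4 of the 14, with ZP4, KHDC3L and PADI6 higher and ZAR1L lower in large follicles, against 10.4% of all genes tested. Fold changes were above 0 in 10 of the 14 and in 39.9% of all genes, and the median was 0.33 against -0.08. Over all 26 genes with no filter the median was 0.04, against -0.02 for all genes above 0.

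The filter bears on these counts. DDX4 reached 1 FPKM in 2 libraries only through large follicles, and ZP2 and ZAR1L only through small follicles, so counts over the 14 describe those genes and do not stand for all members. WEE2 came in with 1.63 FPKM in large 2 and 1.17 in small 1, while BTG4 and FIGLA, with 1.64 in large 2 and 1.52 in large 1, stayed out with 1 such library each. Among the 26, the lowest large library lay above the highest small library in 7, against 10.4% of all genes above 0, and the reverse held in 3, against 13.5%. The 7 were ZP4, PADI6, KHDC3L, OOEP, NOBOX, MOS and FIGLA, of which FIGLA separated by depth alone, with 1 fragment in both large 2 and small 2. The 3 were ZP2, ZAR1L and SOHLH1.

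**Figure D2:**
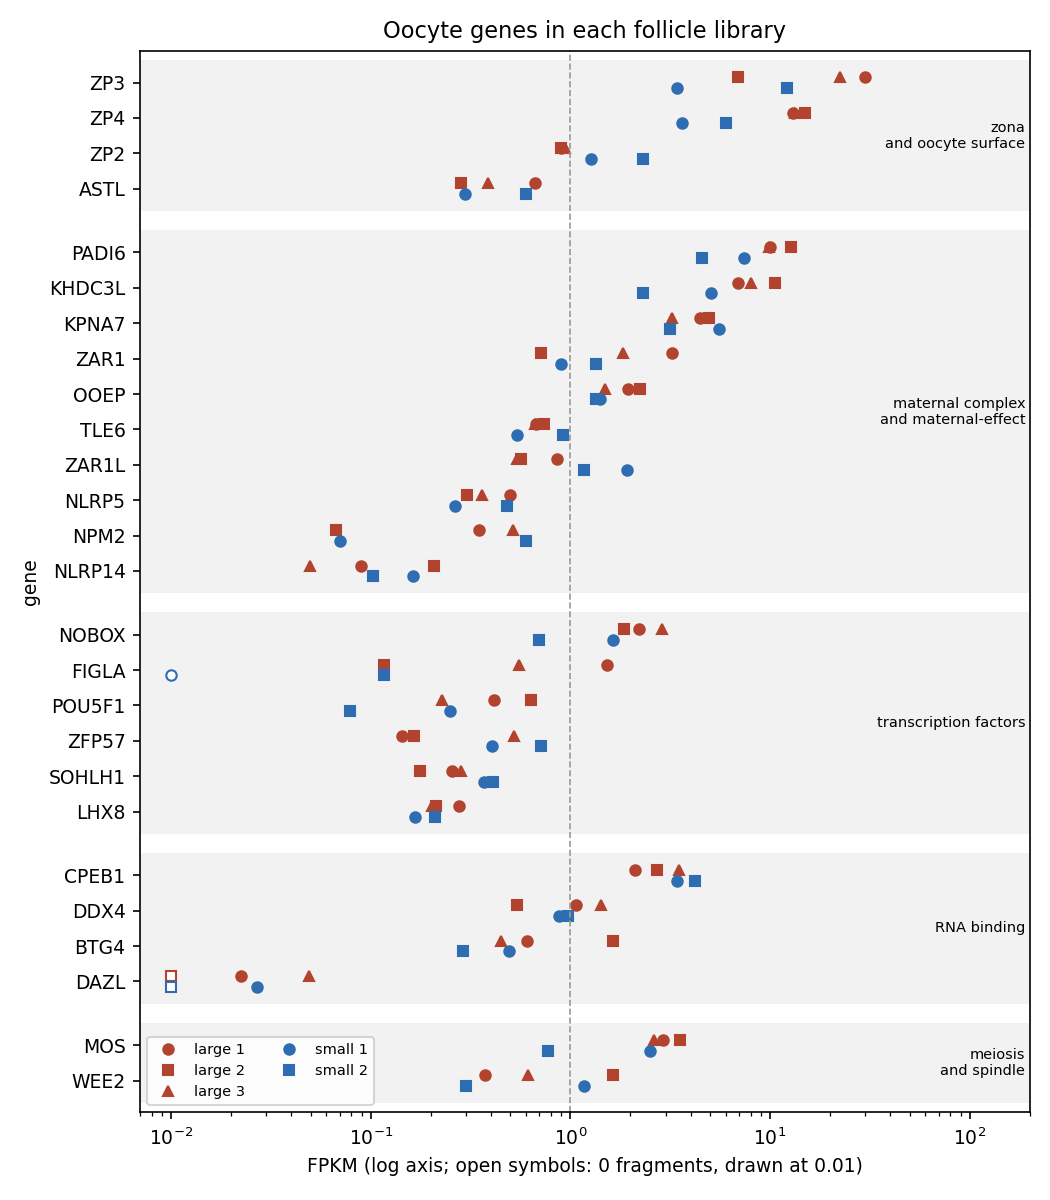
Points give the FPKM of each oocyte gene (log axis) in each library, grouped by role, with red for large and blue for small follicles, the symbol shape for the replicate number and a dashed line at 1 FPKM. Open symbols stand for 0 fragments; ZP4 separates the groups with large libraries at 13.1 to 14.9 and small libraries at 3.63 and 6.05, while KPNA7 and DDX4 do not.

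ZP4 had the smallest p of the zona genes. It codes for a zona glycoprotein that the pig coat contains and lies on chromosome 14 at 53577138 to 53584544 of Sscrofa11.1 (gene 397111). ZP4 was at 13.1, 14.9 and 13.4 FPKM in large 1, 2 and 3, and at 3.63 and 6.05 in small 1 and 2. The lowest large value was more than double the highest small value, and the means were 13.8 ± 0.961 (SD, n = 3) and 4.84 ± 1.71 (SD, n = 2), a 2.85-fold difference. On the log2(FPKM + 1) scale ZP4 differed by 1.37 (SE 0.27, 95% interval 0.76 to 1.99), with an adjusted p of 0.058 by limma, just short of the threshold. It was called with median-of-ratios scaling (1.46, limma adjusted p = 0.0205), quantile normalization (1.47, 0.0191), library weights (1.34, 0.0427) and without large 2 (1.32, 0.0473). Over the alternatives its adjusted p ran from 0.0191 to 0.296.

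ZP3, the zona glycoprotein known for its part in sperm binding, was the highest of the 26 members by mean in both groups and also among the least even. It lies on chromosome 3 at 9934760 to 9944924. ZP3 was at 30, 6.88 and 22.4 FPKM in large 1, 2 and 3, and at 3.41 and 12.2 in small 1 and 2. Large 2 lay below small 2, so the groups overlapped, and the means were 19.8 ± 11.8 (SD, n = 3) and 7.78 ± 6.19 (SD, n = 2). The log2 difference was 1.23 (SE 0.59, 95% interval -0.10 to 2.56), with an adjusted p of 0.533 by limma. Single libraries decided this value: without large 2 it was 1.82, with an adjusted p of 0.0214 by limma, without small 1 it was 0.44 (0.768), and over each library left out in turn it ran from 0.44 to 2.02.

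ZP2, whose cleavage after fertilization blocks further sperm, had the reverse order. It lies on chromosome 3 at 24863730 to 24877522. ZP2 was at 0.895, 0.897 and 0.942 FPKM in large 1, 2 and 3, and at 1.27 and 2.32 in small 1 and 2. Both small libraries lay above the narrow range of the large ones, and the small mean was 1.97-fold the large mean (1.80 ± 0.743, n = 2, and 0.911 ± 0.0265, n = 3, SD). The log2 difference was -0.52 (SE 0.27, 95% interval -1.12 to 0.08), with an adjusted p of 0.567 by limma. It was -0.25 without small 2 and -0.80 without small 1. These values rested on 20 to 23 fragments in each large library and 27 and 52 in the small ones. ZP2 shares 892 bases with TMEM159 on the other strand, which had 117 to 270 fragments, and the sources used here do not say whether counting used the strand. ASTL, the cortical granule protease that cleaves ZP2, was at 0.445 ± 0.198 (SD, n = 3) and 0.449 ± 0.216 FPKM (SD, n = 2), below the filter.

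Zona mRNA is known mainly from the oocyte. Whether a ratio of zona genes within a library depends less on how much oocyte RNA that library holds was not tested. These ratios were computed after the values had been seen and are given without a test. The FPKM ratio of ZP4 to ZP2 was 14.6, 16.6 and 14.3 in large 1, 2 and 3, and 2.86 and 2.61 in small 1 and 2. The 5 values formed one narrow range per group, with means of 15.2 ± 1.27 (SD, n = 3) and 2.73 ± 0.175 (SD, n = 2), a 5.55-fold difference, and the log2 difference of 2.47 became 1.90 with 1 and 1.14 with 5 added to each FPKM. The ratio of ZP3 to ZP2 was 33.5, 7.67 and 23.8 in large and 2.68 and 5.24 in small libraries, also without overlap. The ratio of ZP3 to ZP4 was 2.29, 0.462 and 1.67 in large and 0.939 and 2.01 in small libraries, with full overlap. Because ZP4 was higher and ZP2 lower in every large library than in either small one, their ratio could not overlap. It is therefore no result separate from those values. ZP2, the divisor, rested on 20 to 52 fragments a library and shares bases with TMEM159. ZP3 against ZP4 varied within both groups.

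**Figure D3:**
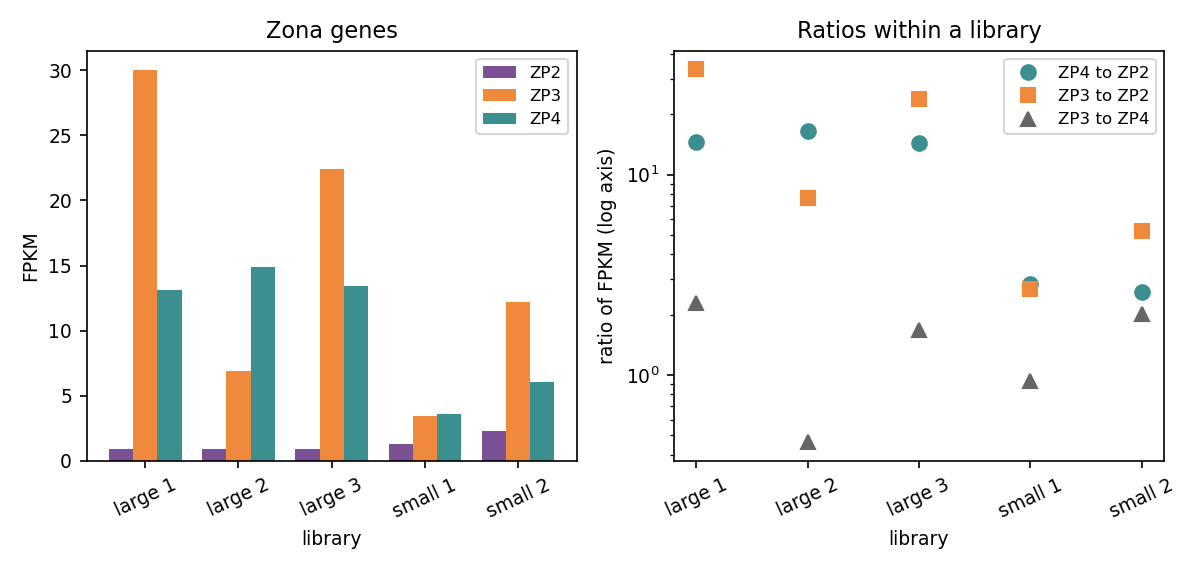
Left, bars give the FPKM of ZP2, ZP3 and ZP4 in each library; right, points give the ratio of 2 zona genes within each library on a log axis. The ratio of ZP4 to ZP2 lies at 14.3 to 16.6 in large libraries and at 2.61 and 2.86 in small ones, while the ratio of ZP3 to ZP4 overlaps.

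In the maternal complex, PADI6 and KHDC3L were higher in every large library than in either small one, OOEP separated by about 1 fragment, and TLE6 and NLRP5 overlapped. PADI6, a member of the peptidylarginine deiminase family that oocyte cytoplasmic lattices require, lies on chromosome 6 at 75969855 to 75987097. PADI6 was at 10, 12.7 and 9.88 FPKM in large 1, 2 and 3, and at 7.37 and 4.59 in small 1 and 2. The groups did not overlap, with means of 10.9 ± 1.60 (SD, n = 3) and 5.98 ± 1.96 (SD, n = 2), a 1.82-fold difference. PADI6 differed by a log2 value of 0.79 (SE 0.28, 95% interval 0.15 to 1.42), with an adjusted p of 0.340 by limma, and it was 0.50 without small 2.

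KHDC3L codes for a small KH-domain protein of the complex, and mutations of the human gene cause a failure of maternal imprinting. It lies on chromosome 1 at 52996706 to 52999074, 7824 bases from OOEP, which codes for a related protein of the same complex. KHDC3L was at 6.89, 10.6 and 8.02 FPKM in large 1, 2 and 3, and at 5.09 and 2.30 in small 1 and 2. Every large library was above both small ones, with means of 8.49 ± 1.88 (SD, n = 3) and 3.70 ± 1.97 (SD, n = 2), a 2.30-fold difference. KHDC3L differed by a log2 value of 1.06 (SE 0.34, 95% interval 0.30 to 1.82), with an adjusted p of 0.263 by limma. With large 2 and small 1 both left out, an alternative chosen after seeing the data, it was 1.35 with an adjusted p of 0.0415 by limma. Without small 2 it was 0.62 with an adjusted p of 0.957, and the range over each library left out in turn was 0.62 to 1.51.

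OOEP had the same order with far fewer fragments. Its values were 1.94, 2.24 and 1.5 FPKM in large 1, 2 and 3, and 1.41 and 1.34 in small 1 and 2. They came from 10, 10, 7, 6 and 6 fragments, so the absence of overlap rested on about 1 fragment, and the log2 difference of 0.28 (SE 0.26) had an adjusted p of 0.822 by limma. TLE6, a transducin-like protein without which the complex does not form, was at 0.693 ± 0.0386 (SD, n = 3) and 0.729 ± 0.266 FPKM (SD, n = 2). NLRP5, the founding member known as MATER, was at 0.389 ± 0.101 (SD, n = 3) and 0.373 ± 0.153 FPKM (SD, n = 2). Both stayed under the filter, with 14 to 25 fragments for TLE6 and 24 to 55 for NLRP5 in a library. By FPKM, genes for parts of one protein assembly were spread from NLRP5, at 0.501 or less in every library, to PADI6, at 4.59 or more. This order depends on the gene lengths, since NLRP5, listed at 9531 bases, had more fragments than OOEP and TLE6 in every library.

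Among the other maternal-effect genes, the paralogs ZAR1 and ZAR1L, zinc-finger proteins that bind stored mRNA, differed in how they were spread. ZAR1L was at 0.859, 0.565 and 0.540 FPKM in large 1, 2 and 3, and at 1.93 and 1.17 in small 1 and 2. Both small libraries were above all large ones, and the small mean was 2.37-fold the large mean (1.55 ± 0.534, n = 2, and 0.655 ± 0.177, n = 3, SD). The log2 difference was -0.61 (SE 0.26, 95% interval -1.19 to -0.03), with an adjusted p of 0.449 by limma, from 12 to 39 fragments a library. ZAR1 was at 3.22, 0.713 and 1.84 FPKM in large 1, 2 and 3, and at 0.897 and 1.35 in small 1 and 2. Its groups overlapped, since large 2 was the lowest of all, and its log2 difference of 0.37 (SE 0.37) had an adjusted p of 0.833 by limma.

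KPNA7, an importin alpha of oocytes and early embryos that carries proteins into the nucleus, was the fifth highest member in large follicles. KPNA7 was at 4.44, 4.95 and 3.24 FPKM in large 1, 2 and 3, and at 5.55 and 3.15 in small 1 and 2. The small libraries enclosed the large ones, and the log2 difference was -0.02 (SE 0.32, 95% interval -0.73 to 0.70), with an adjusted p of 0.995 by limma and a sign that turned to 0.06 with median-of-ratios scaling and 0.09 with quantile normalization. NPM2, a histone chaperone of the egg, had 1 to 9 fragments a library and means of 0.310 ± 0.226 (SD, n = 3) and 0.336 ± 0.376 FPKM (SD, n = 2). NLRP14, required for early embryos in mice, had 1 to 4 fragments a library. Both overlapped between the groups.

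Of the transcription factors, NOBOX alone passed the filter. NOBOX is a homeodomain factor that follicle growth requires, and it lies on chromosome 9 at 113348363 to 113354504. It was at 2.22, 1.86 and 2.88 FPKM in large 1, 2 and 3, and at 1.64 and 0.693 in small 1 and 2. The groups did not overlap, though large 2 and small 1 lay close, with means of 2.32 ± 0.520 (SD, n = 3) and 1.17 ± 0.672 (SD, n = 2). The log2 difference was 0.64 (SE 0.30, 95% interval -0.04 to 1.32), with an adjusted p of 0.520 by limma. It was 0.32 without small 2 and 0.96 without small 1.

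FIGLA, the basic helix-loop-helix factor known to drive zona gene transcription, was at 1.52, 0.117 and 0.556 FPKM in large 1, 2 and 3, and at 0 and 0.116 in small 1 and 2. These values were 15, 1, 5, 0 and 1 fragments. Only large 1 and large 3 held more than a single fragment, and the 0 of small 1 allows up to 0.367 FPKM, above the value of large 2. SOHLH1, a helix-loop-helix factor of early follicles that lies on an unplaced scaffold, had 3 to 5 fragments in large and 6 and 7 in small libraries (0.238 ± 0.0546, n = 3, and 0.391 ± 0.0280 FPKM, n = 2, SD). LHX8, a LIM-homeodomain factor, had 3 to 6 fragments in every library. POU5F1, the pluripotency factor that oocytes also store, had 1 to 8 fragments, while NANOG and SOX2, its companions in pluripotent cells, had a single fragment, in large 2, and none in any library. ZFP57, a zinc-finger protein that keeps imprints in the embryo, had 3 to 13 fragments and the reverse order of means, 0.278 ± 0.214 (SD, n = 3) and 0.557 ± 0.217 FPKM (SD, n = 2). Fitted with no filter, the 5 factors beside NOBOX had limma adjusted p from 0.609 (SOHLH1) to 0.850 (LHX8).

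The RNA-binding genes showed no common direction. CPEB1, which holds stored mRNAs silent until meiosis resumes, was at 2.11, 2.73 and 3.51 FPKM in large 1, 2 and 3, and at 3.42 and 4.19 in small 1 and 2. Large 3 lay between the small libraries, and the log2 difference was -0.36 (SE 0.29, 95% interval -1.02 to 0.30), with an adjusted p of 0.776 by limma. DDX4, the germ cell RNA helicase also called VASA, was at 1.07, 0.543 and 1.42 FPKM in large and 0.873 and 0.972 in small libraries. The small values lay inside the large range, and the log2 difference of 0.04 (SE 0.27, adjusted p = 0.983 by limma) turned to -0.03 when libraries were scaled to a common sum. BTG4, the adaptor that brings the CCR4-NOT deadenylase to maternal mRNAs, was at 0.610, 1.64 and 0.447 FPKM in large and 0.491 and 0.291 in small libraries. Its one high value was that of large 2. DAZL, a germ cell translation regulator, had 0 to 2 fragments everywhere, and its 0 in large 2 and small 2 allows up to 0.077 and 0.0766 FPKM.

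Of the meiosis genes, MOS is the kinase that starts the MAP kinase cascade holding eggs in metaphase, and WEE2 is the kinase that keeps oocytes in prophase arrest. MOS was at 2.91, 3.53 and 2.62 FPKM in large 1, 2 and 3, and at 2.51 and 0.773 in small 1 and 2. The groups did not overlap, though small 1 lay close to large 3, and the means of 3.02 ± 0.461 (SD, n = 3) and 1.64 ± 1.23 (SD, n = 2) were 1.84-fold apart. MOS had a log2 difference of 0.68 (SE 0.34, 95% interval -0.08 to 1.45), with an adjusted p of 0.551 by limma. It was 0.19 without small 2 and 1.17 without small 1. WEE2 was at 0.373, 1.63 and 0.615 FPKM in large and 1.17 and 0.299 in small libraries. Large 2 and small 1 were its high libraries, and the log2 difference of 0.10 (SE 0.34) had an adjusted p of 0.959 by limma. A noncoding gene on the other strand, LOC100513188 with 47 to 110 fragments, spans WEE2 whole, so with strand use unknown its reads cannot be told apart. In all, 6 of the 26 members overlap another gene. Beside ZP2 and WEE2 these are LHX8, CPEB1, BTG4 and MOS, whose neighbours had 0 to 9 fragments a library.

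**Figure D4:**
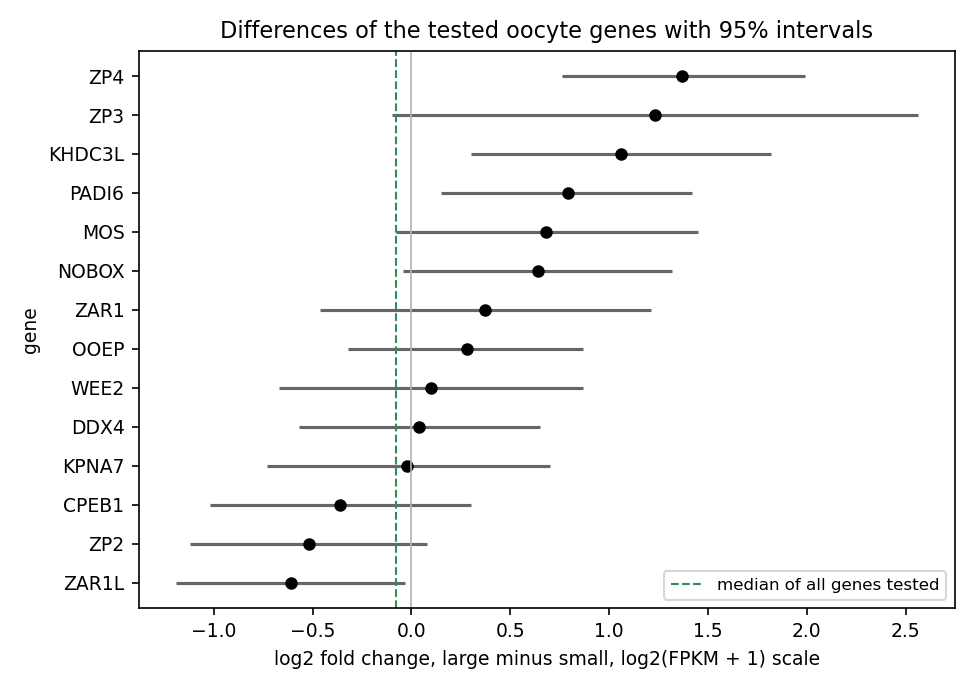
Points give the log2 difference of large minus small follicles on the log2(FPKM + 1) scale for the 14 tested oocyte genes, and lines the limma 95% intervals; the dashed line marks the median of all genes tested, -0.08. The intervals of ZP4, KHDC3L and PADI6 lie above 0, that of ZAR1L below 0, and the others span 0; no adjusted p was under 0.05.

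Within the groups, the members split by how they stood in the 2 libraries with a high mitochondrial share, large 2 and small 1. This split was seen in the values and is described without a test. Of the 26 genes, 9 had their highest large value in large 2 and their highest small value in small 1, against 7.57% of all genes above 0. Among the 14 tested genes the count was 6, against 7.71%. The 9 were OOEP, PADI6, KHDC3L, NLRP14, KPNA7, POU5F1, BTG4, MOS and WEE2, which include 3 genes of the maternal complex and both meiosis genes. OOEP, also among the 6, came in by depth alone, with 10 fragments in both large 1 and large 2 and 6 in both small libraries. NLRP14 and POU5F1 had 8 fragments or fewer in every library. Another 8 had their lowest value of each group in these libraries, against 40.6% of all genes above 0, namely ZP3, ASTL, NLRP5, ZAR1, NPM2, FIGLA, SOHLH1 and DDX4, and 3 of the 14 tested genes did so against 55.7%. The part of the mitochondrial share in either pattern was not tested.

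These patterns held genes of very different count. ZP3 had 447 and 304 fragments in large 1 and 3 but 89 in large 2, and 158 in small 2 but 42 in small 1. FIGLA had 15 and 5 fragments in large 1 and 3 but 1 in large 2. WEE2 ran opposite, with 10 and 15 fragments in large 1 and 3 but 38 in large 2, and 7 in small 2 but 26 in small 1. ZP4 belonged to neither pattern, with 236 to 253 fragments in every large library.

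**Figure D5:**
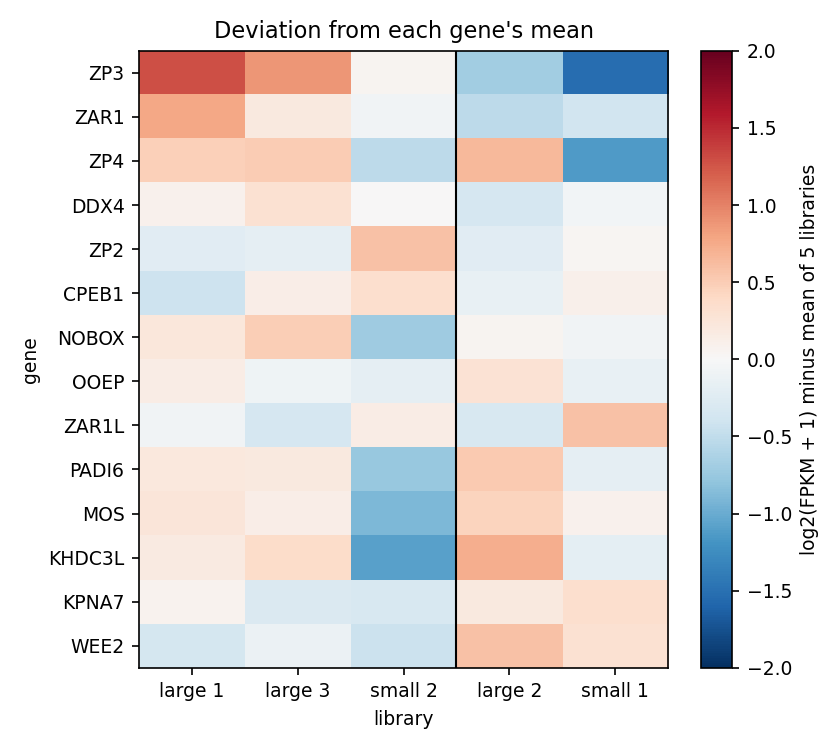
Colours give the log2(FPKM + 1) of each tested oocyte gene minus its mean over the 5 libraries, with red above and blue below the mean; genes are ordered by their sum in large 2 and small 1, which stand right of the line. ZP3 and ZAR1 are low in both of these libraries and WEE2 is high in both.

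Other genes of the oocyte, from a list of 56 that holds no member, were split in sign among those tested. Of the 56, 48 were found, 47 were above 0 and 20 were tested, of which 9 had higher and 11 lower values in large follicles, with a median of -0.05 against -0.08 for all genes and none called by limma on FPKM or by voom. Over all 47, tested or not, 11 lay higher in every large than in every small library, against 10.4% of all genes above 0, and 1 (KIT) lower, against 13.5%. The 11 were CD9, UCHL1, TCL1B, EIF4E1B, MAEL, SYCP3, TDRD1, SMC1B, SYCP2, GPR3 and NLRP4, of which SYCP2, GPR3 and NLRP4 had 11 fragments or fewer in every library. GDF9, the growth factor by which the oocyte drives granulosa cells, was at 14.6, 20.8 and 17.2 FPKM in large 1, 2 and 3, and at 14.7 and 13.9 in small 1 and 2. The groups overlapped, and its log2 difference was 0.26 (SE 0.24, 95% interval -0.27 to 0.79), with an adjusted p of 0.805 by limma. BMP15, the partner factor of GDF9, was at 3.69, 2.91 and 2.82 FPKM in large and 3.65 and 3.98 in small libraries. It overlapped as well, with a log2 difference of -0.22 (SE 0.28) and an adjusted p of 0.874 by limma. ZP1 had no row under that symbol.

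The 4 other-oocyte genes with an unadjusted p under 0.05 and higher values in large follicles were TCL1B, CD9, UCHL1 and EIF4E1B. TCL1B, of the TCL1 family of kinase co-activators, was at 4.55, 6.60 and 3.89 FPKM in large and 1.73 and 1.35 in small libraries. It did not overlap, and its log2 difference was 1.22 (SE 0.30), with an adjusted p of 0.120 by limma. EIF4E1B, an oocyte form of the cap-binding protein, was at 2.26 ± 0.589 (SD, n = 3) and 1.07 ± 0.194 FPKM (SD, n = 2), with an adjusted p of 0.457 by limma. CD9, the egg membrane protein needed for sperm fusion and also made by somatic cells, had means of 61.2 ± 16.6 (SD, n = 3) and 30.7 ± 9.32 FPKM (SD, n = 2). Its log2 difference was 0.96 (SE 0.29, adjusted p = 0.215 by limma), and 1.21 without large 2, with an adjusted p of 0.0186 by limma. UCHL1, a ubiquitin hydrolase abundant in oocytes and neurons, was at 96.9 ± 22.0 (SD, n = 3) and 60.7 ± 0.662 FPKM (SD, n = 2), with an adjusted p of 0.332 by limma.

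KIT, the receptor on oocytes and theca cells for the granulosa ligand KITLG, had lower values in large follicles. It was at 1.47, 1.45 and 1.39 FPKM in large 1, 2 and 3, and at 3.30 and 8.52 in small 1 and 2. Both small libraries exceeded the narrow large range, and the log2 difference was -1.39 (SE 0.36, 95% interval -2.19 to -0.59), with an adjusted p of 0.135 by limma. Without small 1 it was -1.97, with an adjusted p of 0.0431 by limma. CCNB3, a cyclin of meiosis, was at 0.977 ± 0.447 (SD, n = 3) and 1.80 ± 0.735 FPKM (SD, n = 2), with an adjusted p of 0.655 by limma.

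A ratio to GDF9 would set aside the amount of oocyte RNA only if each oocyte held the same GDF9 mRNA, which was not tested. The ratio of BMP15 to GDF9 was 0.253, 0.14 and 0.164 in large 1, 2 and 3, and 0.248 and 0.287 in small 1 and 2. Divided by the GDF9 value of the same library, a ratio chosen after the values had been seen and given without a test, 3 of the 26 members were higher in all large than in all small libraries, against 5.33% of all genes above 0. These were ZP4, at 0.898, 0.718 and 0.782 against 0.247 and 0.436, PADI6, at 0.688, 0.612 and 0.575 against 0.501 and 0.331, and KHDC3L, at 0.473, 0.508 and 0.467 against 0.346 and 0.166. ZP2, ZAR1L, SOHLH1 and CPEB1 were lower in all large libraries, 4 of 26 against 20.4% of all genes above 0, and the other 19 overlapped. OOEP, NOBOX, MOS and FIGLA, which separated the groups in FPKM, did not in their ratio to GDF9.

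The partners of the members, proteins that somatic cells make as well, stood mostly the other way. Of 36 listed partners, 32 were found and 27 tested, and 26 of the 27 had lower values in large follicles, where 60.1% of all genes did. Their median log2 difference was -0.41 against -0.08 for all genes, and none was called by limma on FPKM or by voom with no FPKM filter, with 7 at an unadjusted p under 0.05, all lower. CNOT7, a deadenylase of the CCR4-NOT complex that BTG4 recruits, was at 8.84 ± 2.89 (SD, n = 3) and 16.8 ± 2.58 FPKM (SD, n = 2), with an adjusted p of 0.294 by limma. DNMT1, the maintenance DNA methyltransferase, was at 9.11 ± 1.24 and 16.5 ± 5.83 FPKM, with an adjusted p of 0.354. KPNA2, the somatic relative of KPNA7, was at 23.5 ± 2.52 and 37.2 ± 10.3 FPKM, with an adjusted p of 0.377, and the tubulin TUBB4B at 66.5 ± 16.0 and 105 ± 12.1 FPKM, with an adjusted p of 0.336. Among the 27 tested, the one partner with higher values in large follicles was CDC25B, the phosphatase that opposes WEE kinases. It was at 12.3 ± 2.36 and 9.10 ± 0.505 FPKM, with an adjusted p of 0.712 by limma. Many partners serve dividing cells, and oocyte and somatic transcripts of these genes cannot be told apart in whole follicles.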

How the data were processed

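Ovarian follicles of pigs were sequenced in 5 libraries, and groups and replicate numbers came from the sample titles. The authors deposited FPKM values for each gene. Per the submitters' processing notes, the genome build was Sscrofa11.1 and the tools were HISAT2 2.0.5 and StringTie 1.3.3, Trimmomatic 0.38 and FastQC 0.11.4, and featureCounts 1.5.0-p3, listed without their roles. The sources used here do not say whether the strand was used in counting. Gene identifiers were matched to a RefSeq table for 30335 of 30822 genes.

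Fragments were worked back from the FPKM steps. Of 23353 genes above 0, 49.5% gave whole fragments, within 0.001, with the listed length and 99.9% with that or a shorter length, and recovered fragments summed to 99.53% to 99.6% of the totals. Libraries of a group differed by more than sampling noise (chi-square per degree of freedom 28.5 to 51.9).

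Each gene that reached 1 FPKM in 2 or more libraries was tested with limma 3.58.1 in R 4.3.3 (two-sided, mean-variance trend, group as the only term, pseudocount 1), with Benjamini-Hochberg adjustment over 13087 genes. The script was tested on simulated data. Values after ± are SD. Each alternative changed one choice of scaling, pseudocount, filter, model or library. Leaving out large 2 and small 1 together, and voom with no FPKM filter, were added after seeing the data.

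Every member was named. Of the other oocyte genes, GDF9, BMP15, ZP1 and the 6 tested ones of smallest p were named, and of the partners the 4 of smallest p, plus CDC25B after its values were seen. The members and lists were chosen with earlier results of these data known. A planned motif search in promoters was not run, since no promoter sequences were at hand.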

Additional observations from a re-analysis of the deposited data

How the results depend on the processing

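The 128 genes called became 32 with no filter on low values, 41 with a mean FPKM of at least 5, 201 with quantile normalization, 202 with median-of-ratios scaling, 82 with protein-coding genes only, 69 with voom on recovered fragments and 85 with voom and no FPKM filter. With large 2 and small 1 left out together, chosen after seeing the data, there were 390, and leaving out 1 library at a time gave 29 to 268. Against 0 oocyte genes called, median-of-ratios scaling, quantile normalization and library weights called 1 each (ZP4), leaving out large 2 and small 1 together called 1 (KHDC3L), and leaving out 1 library gave 0 to 2, the 2 being ZP3 and ZP4 without large 2. For the other oocyte genes these library omissions gave 1 (KIT) and 0 to 1 (CD9 without large 2, KIT without small 1). Where small follicles were left with 1 library, it was assumed to vary like the large ones. The cause of these moves was not tested.

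The replicate numbers are not said to mark a shared animal. Same-numbered libraries deviated from their group means with correlations of -0.001 and -0.449, and differently numbered ones with -0.533 to 0.533. The deviations of small 1 and small 2 mirror each other exactly, so these correlations cannot show whether the numbers mark an animal. The fit with the number as a replicate block used replicates 1 and 2 only, so it left out large 3. It called 154 genes and 0 oocyte genes. Every tested oocyte gene had the same log2 difference there as on leaving out large 3 alone. The sign of KPNA7 (-0.02) turned to 0.13 without large 3, with or without the block. Its log2 difference was 0.09 with quantile normalization, 0.06 with median-of-ratios scaling and 0.21 without large 2 and small 1. Leaving out 1 library gave -0.34 to 0.31. DDX4 (0.04) turned to -0.11 without large 3, with or without the block, and to -0.03 at a common sum. Leaving out 1 library gave it -0.11 to 0.22. WEE2 (0.10) turned to -0.08 with library weights, with -0.27 to 0.47 on leaving out 1 library. The median of all genes was -0.20 at a common sum and 0.00 with median-of-ratios scaling, against -0.08 as deposited. The other 11 tested oocyte genes kept their sign throughout. Depth limits the members with few fragments: DAZL had up to 2 a library, NLRP14 up to 4 and the tested OOEP up to 10. The log2 ratio of ZP4 to ZP2 (2.47) moved to 1.14 with a pseudocount of 5.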

Other observations

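Some rows without a gene symbol carry the description of an oocyte gene, and they were looked up after the values had been seen. LOC100515533, described as an oocyte-specific histone stem-loop-binding protein, which belongs to the machinery that stores histone mRNA, had 18, 16 and 12 fragments in large 1, 2 and 3, and 6 and 4 in small 1 and 2. At 1.12, 1.15 and 0.823 FPKM against 0.452 and 0.286 it did not overlap between the groups. It passed the filter of 1 FPKM only through large 1 and large 2. In the fit with no filter its log2 difference was 0.57, with an adjusted p of 0.361 by limma. LOC100519606, described as ret finger protein-like 4A, overlapped between the groups, with 8, 6 and 18 fragments in large follicles against 10 and 6. LOC100512212, described as an oocyte-secreted protein, had no fragment in the 3 large libraries and 3 and 1 in small 1 and 2. Whether these rows are the genes RFPL4A and OOSP2 was not settled, so they are counted nowhere above.

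In shares of all fragments in oocyte genes, several members did not overlap between the groups, and no such comparison was made over all genes. Of these, ZP4 alone was higher in large libraries. ZP2, ZAR1L, CPEB1, TLE6, SOHLH1, LHX8, ZFP57 and DDX4 were lower. DDX4 separated narrowly, at 3.03% in large 3 and 3.04% in small 1, and SOHLH1 and LHX8 had 7 fragments or fewer in every library. ZAR1L took 0.888% to 1.3% in large and 5.16% and 3.06% in small libraries. ZP2 took 1.43% to 1.64% in large and 3.57% and 6.37% in small libraries, and CPEB1 2.54% to 4.59% and 7.28% and 8.70%. ZP4 took 15.7% to 20.5% and 7.67% and 12.5%. PADI6, at 17.2% to 25.1% and 22.4% and 13.6%, and ZP3, at 7.31% to 27.7% and 5.56% and 19.4%, overlapped. Such shares sum to a fixed whole, so a higher share of one gene lowers the others.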
